A study of Mus musculus with 12 samples.

Results

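The 7 genes described here are Ankrd1, Ankrd2, Ankrd23, Csrp3, Xirp1, Ctgf and Cyr61, known from muscle and connective tissue that is stretched or loaded. They are a list of gene symbols, drawn up with earlier results of these data known. The platform annotation lists Ctgf and Cyr61 under their current symbols, Ccn2 and Ccn1. Together they hold 11 of the 34945 probe sets with a single gene symbol, and 7 of the 18194 genes. Where a gene had several probe sets, the one with the highest mean signal stood for it. All 7 passed the filter on low values that left 12654 genes for testing.

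The arrays measured total RNA from 12 mice in 4 groups of 3. The first group, KO+GH, was the knockout for the transcription factor genes Stat5a and Stat5b and received growth hormone (GH). The second, WT+GH, carried both genes and received GH. The KO and WT groups were the same genotypes without GH. Skeletal muscle is named as the tissue by the series title alone, whereas the treatment text places the deletion in blood cells. Cre driver, sex, age, and the dose and timing of GH are not given in the sources used here. STAT5 proteins are switched on by the GH receptor and carry its signal to genes. The design sets the genotypes side by side with and without GH.

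Ankrd1 (CARP), Ankrd2 (Arpp) and Ankrd23 (DARP) make up the muscle ankyrin repeat protein family, which binds the spring-like N2A region of titin and can also move to the nucleus. Csrp3 encodes the muscle LIM protein, found at the Z-disc, where neighbouring sarcomeres join. Xirp1 encodes Xin, an actin-binding protein that partners with filamin C at sites of myofibril remodelling. Ctgf and Cyr61 are secreted matricellular proteins of the CCN family and standard targets of the Hippo pathway co-activators YAP and TAZ, which act on DNA through TEAD factors.

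Promoters of 5 of the 7 genes are in the RefSeq promoter set (GRCm38.p6, from 250 bases before to 50 bases after the start site of each entry). For Ankrd2 that start site is not the start of the gene, which lies upstream of it at 42035917. An entry each of Ankrd23 and Csrp3 also has its start site inside the gene. The promoters shown are those of Ankrd1, the member with the steepest GH differences, of Ankrd2, its family neighbour on the same chromosome, and of Cyr61, a standard YAP and TAZ target. All run 5′ to 3′ on the strand of the gene, and capitals mark GGAATG, the TEAD motif, on either strand.
Ankrd1, chr19:36119795-36120094, minus strand: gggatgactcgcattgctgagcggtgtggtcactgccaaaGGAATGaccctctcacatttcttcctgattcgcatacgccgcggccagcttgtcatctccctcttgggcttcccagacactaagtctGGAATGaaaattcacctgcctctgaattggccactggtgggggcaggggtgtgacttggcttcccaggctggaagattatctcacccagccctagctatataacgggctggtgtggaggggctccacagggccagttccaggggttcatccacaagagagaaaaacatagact
Ankrd2, chr19:42035777-42036076, plus strand: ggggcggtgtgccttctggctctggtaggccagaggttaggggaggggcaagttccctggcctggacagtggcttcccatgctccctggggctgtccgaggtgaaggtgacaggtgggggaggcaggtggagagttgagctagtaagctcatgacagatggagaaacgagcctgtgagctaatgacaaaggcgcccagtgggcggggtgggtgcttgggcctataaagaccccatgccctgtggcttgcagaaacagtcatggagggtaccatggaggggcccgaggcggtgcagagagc
Cyr61, chr3:145649936-145650235, minus strand: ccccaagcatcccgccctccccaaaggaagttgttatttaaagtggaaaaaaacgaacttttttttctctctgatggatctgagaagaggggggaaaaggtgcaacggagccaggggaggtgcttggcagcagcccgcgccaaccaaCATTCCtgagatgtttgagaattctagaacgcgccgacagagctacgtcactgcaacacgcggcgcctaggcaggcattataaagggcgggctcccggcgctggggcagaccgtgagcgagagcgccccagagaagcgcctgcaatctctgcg
Ankrd1 held 2 GGAATG matches, at -210 and -123 from the start of the gene. Cyr61 held 1, at -103, and Ankrd2 none. Of the 32851 promoters of this length, 14.7% held the motif. The STAT motif TTCNNNGAA, present in 8.3% of promoters, and the CArG box, bound by SRF and present in 1.63%, were in none of these 3 sequences. Ankrd23 and Csrp3 have 2 promoter entries each. Both of Ankrd23 held 1 GGAATG match, and 1 of them also a TTCNNNGAA match that overlaps it, while those of Csrp3 held none of the 3 motifs. A match describes letters in this window and is not a measured binding site.

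In KO+GH arrays Stat5b, a known mediator of GH signals, read 333 to 378, against 1694 to 1896 in WT+GH arrays; KO arrays read 372 to 497, against 2640 to 2955 in WT arrays. Stat5a ranged from 129 to 196 in KO+GH, against 384 to 436 in WT+GH, and from 170.0 to 361 in KO, against 561 to 730 in WT. Arrays with GH also had a higher median signal than those without (97.4 to 102 against 79.3 to 92.4). Their poly-A labelling controls were far brighter, with geometric means of 442 to 467 against 129 to 168. These controls are spiked into the RNA before labelling, and the labels name no batch. Whatever set this difference coincides with GH in all 12 arrays, so that in every GH comparison it cannot be told apart from GH. The actin 3′ to 5′ ratio was 0.962 to 1.01 in KO+GH, 0.887 to 0.932 in WT+GH and 0.805 to 0.864 without GH. The Gapdh 3′ to 5′ ratio went the other way, at 0.795 to 0.83 in KO+GH, 0.842 to 0.86 in WT+GH and 0.834 to 0.877 without GH. The part of RNA quality in the results was not tested.

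With GH, 2 of the 7 genes, Ankrd1 and Xirp1, were higher in KO than in WT muscle, and Ctgf was lower. In the same comparison 4.53% of all 12654 genes passed the test, 2.42% higher and 2.11% lower (limma, Benjamini-Hochberg adjusted p under 0.05). Without GH none of the 7 passed in limma, while Ctgf and Xirp1 had unadjusted p under 0.05. There 1.45% of all genes passed, 0.774% higher and 0.68% lower. GH in KO mice came with 3 genes higher (Ankrd1, Ankrd2 and Xirp1) and 1 lower (Ankrd23), where 24.3% of all genes passed, 8.93% higher and 15.4% lower. GH in WT mice came with 4 genes higher (those 3 and Csrp3) and none lower, where 19.1% of all genes passed, 7.33% higher and 11.8% lower. The difference between the GH responses of the genotypes, tested as an interaction, passed for Ankrd1 alone, where 0.933% of all genes passed, 0.624% positive and 0.308% negative. The median log2 difference of the 7 genes was -0.10 for KO+GH over WT+GH, 0.15 for KO over WT, 0.78 for GH in KO and 1.27 for GH in WT. Over all genes those medians were -0.02, -0.0028, -0.06 and -0.06. The comparisons share arrays: KO+GH arrays enter both the genotype comparison with GH and the GH comparison in KO. In bulk tissue, a change in the number of cells of a type and a change in RNA per cell cannot be told apart.

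**Figure D1:**
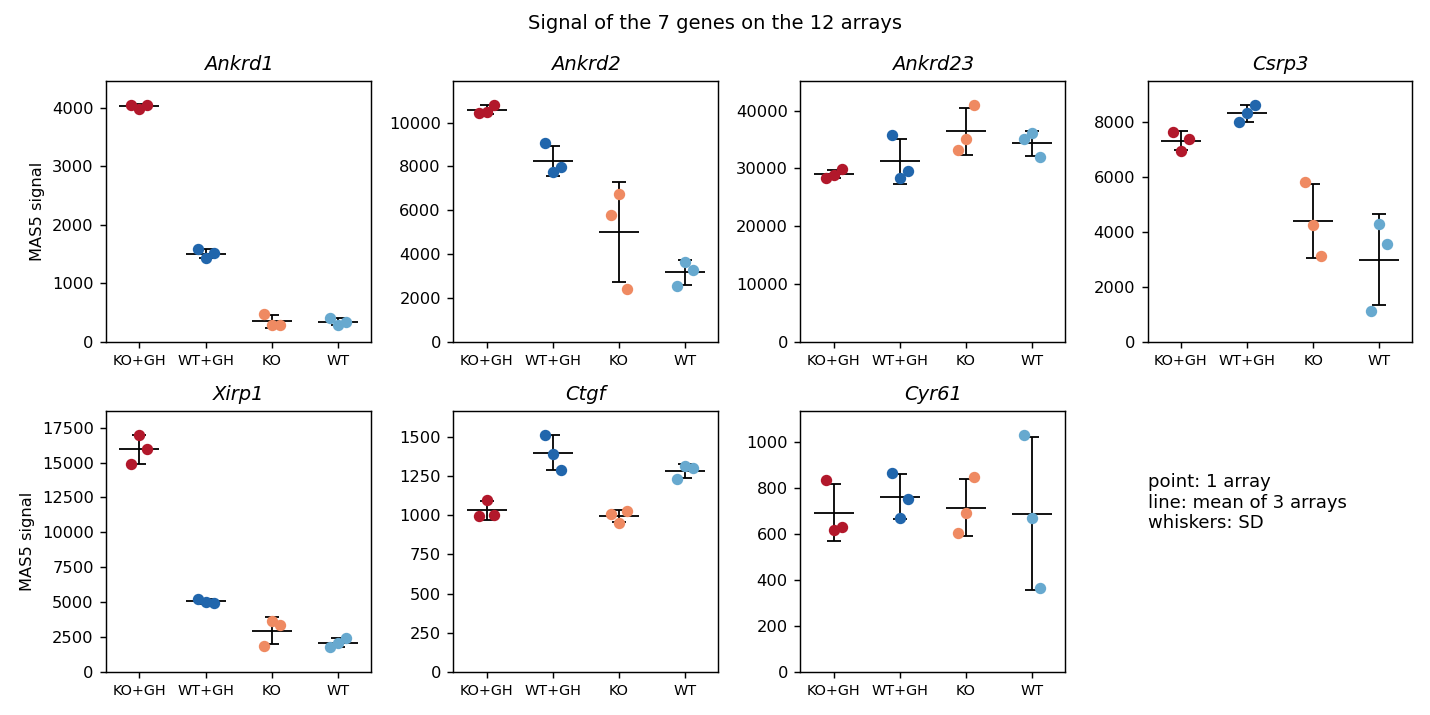
Deposited MAS5 signal (vertical axis, linear, from 0) of each gene on the 12 arrays, by group; each point is 1 array, each line a group mean and each whisker the SD (n = 3). Ankrd1 and Xirp1 stand highest in KO+GH, at 3988 to 4053 and 14904 to 16984, while Ankrd23 overlaps between neighbouring groups.

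Ankrd1, a titin-binding protein known to increase in loaded or injured muscle, was higher with GH in both genotypes and higher in KO+GH than in WT+GH. The gene lies at chr19:36111965-36119844 (GRCm38.p6). Its signal was 4053, 3988 and 4042 in KO+GH muscle, against 1576, 1429 and 1516 in WT+GH muscle. Without GH it was 473, 286 and 276 in KO muscle, against 403, 278 and 336 in WT muscle. All 3 KO+GH arrays therefore lay above all WT+GH arrays, and those above every array without GH, where the genotypes overlapped.

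Means were 4028 ± 34.8 in KO+GH and 1507 ± 74.0 in WT+GH, and 345 ± 111 in KO and 339 ± 62.6 in WT (SD, n = 3 each). On the log2(signal + 25) scale, which understates changes of dim genes, Ankrd1 was 1.40 ± 0.163 (SE) higher in KO+GH than in WT+GH, a 2.65-fold difference (limma, adjusted p = 7.08e-05). Without GH the KO minus WT difference was close to 0 on the log2 scale (adjusted p = 0.999, limma).

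GH was accompanied by a rise of 3.49 ± 0.163 in KO (adjusted p = 3.96e-09, limma) and of 2.09 ± 0.163 in WT (adjusted p = 9.75e-07, limma). The KO response exceeded the WT response by 1.41 ± 0.231 (limma interaction, adjusted p = 0.00576). With the mean of the slow fibre genes entered as a covariate this excess was 0.90 and did not pass (adjusted p = 0.195). Over all genes, interaction calls went from 118 to 78 with that covariate. The other Ankrd1 probe set gave the same picture, with 1.48 ± 0.172 for KO+GH over WT+GH (adjusted p = 0.000114, limma over all 34945 probe sets) and an interaction of 1.52 ± 0.243 (adjusted p = 0.00822).

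Ankrd2, a titin-binding relative known for its preference for slow fibres, rose with GH in both genotypes. It lies on the same chromosome as Ankrd1, at chr19:42035917-42045111. Its signal was 10457, 10464.5 and 10813 in KO+GH muscle, against 9048, 7756 and 7963 in WT+GH muscle. In KO muscle it was 5794, 6747 and 2403, against 2553, 3636 and 3292 in WT muscle. The 2 groups with GH did not overlap, but KO replicate 3 lay below every WT array, so the groups without GH did.

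The GH difference was 1.21 ± 0.307 in KO (adjusted p = 0.0161, limma) and 1.39 ± 0.307 in WT (adjusted p = 0.0106, limma). The KO minus WT difference was 0.36 ± 0.307 with GH (adjusted p = 0.637, limma) and 0.54 ± 0.307 without (adjusted p = 0.572, limma). Fitted on the arrays with GH alone, the first of these passed (adjusted p = 0.00487). Fitted on the KO+GH and KO arrays alone, the GH difference in KO did not pass (limma, adjusted p = 0.0592). Without KO replicate 3, the difference without GH was 0.99 with adjusted p = 0.000941, and the GH difference in KO was 0.76 with adjusted p = 0.000823. Without KO+GH replicate 3, the GH difference in KO no longer passed, at adjusted p = 0.0508. The interaction for Ankrd2 was -0.18 ± 0.434 (adjusted p = 0.925, limma).

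Ankrd23, the third titin-binding family member, at chr1:36530193-36536556, was lower with GH in KO. Its signal was 28405, 28899 and 29858 in KO+GH muscle, against 35694, 28405 and 29609 in WT+GH muscle. In KO muscle it was 33235, 35053 and 41018, against 35053, 36091 and 31948 in WT muscle. Neighbouring groups overlapped throughout, although all KO+GH arrays lay below all KO arrays. With GH in KO the gene fell by 0.32 on the log2 scale (± 0.0985 SE, limma, adjusted p = 0.0277). The call was lost without KO+GH replicate 1, 2 or 3 (adjusted p = 0.0913, 0.0804 and 0.0595) and without KO replicate 3 (adjusted p = 0.109). Under quantile normalization the difference was -0.08 (adjusted p = 0.285). Of 26 alternatives, 18 kept the call. The other Ankrd23 comparisons did not pass, except GH in WT with array-median centring (-0.33, limma, adjusted p = 0.0159). Ankrd23 is a bright gene, and the highest signal of an array was also lower in KO+GH than in KO (46752 to 48399 against 55474 to 75681). The part of this difference in the Ankrd23 result was not tested.

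Csrp3, the muscle LIM protein gene at chr7:48830398-48848051, was high in both groups with GH. Its signal was 7612, 6947 and 7367 in KO+GH muscle, against 7978, 8305 and 8612 in WT+GH muscle. In KO muscle it was 5798, 4247 and 3113, against 1113, 4268 and 3539.5 in WT muscle. All arrays with GH lay above all arrays without, and WT replicate 1, at 1113, was the lowest of the 12.

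Csrp3 rose with GH in WT by 1.68 ± 0.434 (adjusted p = 0.0258, limma). In KO the difference was 0.78 ± 0.434 (adjusted p = 0.23, limma), which passed without WT replicate 1 (adjusted p = 0.00428). Without WT replicate 1 the WT rise was 1.09 (adjusted p = 0.0018). It did not pass without WT+GH replicate 1, 2 or 3 (adjusted p = 0.0566, 0.068 and 0.0747). Fitted on only the groups compared, the KO difference passed (limma, adjusted p = 0.0185) and the WT rise did not (adjusted p = 0.124). The interaction was -0.90 ± 0.613 (adjusted p = 0.678, limma), so a different GH response between genotypes was not shown. The KO minus WT differences were -0.18 ± 0.434 with GH (adjusted p = 0.887) and 0.72 ± 0.434 without (adjusted p = 0.607, limma). With GH, all KO+GH arrays lay below all WT+GH arrays, and a fit on those groups alone gave adjusted p = 0.0686 (limma). Without WT replicate 1, the difference without GH was 0.13 and the interaction -0.31.

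Xirp1, which encodes the Xin protein and lies at chr9:120013755-120023598, stood highest in KO+GH and next highest in WT+GH, as Ankrd1 and Ankrd2 did. Its signal was 14904, 16984 and 15990 in KO+GH muscle, against 5237, 4969.7 and 4957 in WT+GH muscle. In KO muscle it was 1833, 3674 and 3336, against 1774, 2084 and 2446 in WT muscle. The KO+GH arrays stood apart from WT+GH, and WT+GH apart from both groups without GH, which overlapped.

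Xirp1 was 1.65 ± 0.198 higher in KO+GH than in WT+GH, or 3.14-fold (adjusted p = 0.000198, limma). It rose with GH by 2.49 ± 0.198 in KO (5.60-fold, adjusted p = 1.88e-06, limma) and by 1.27 ± 0.198 in WT (2.41-fold, adjusted p = 0.000726, limma). The interaction of 1.22 ± 0.28 did not pass (adjusted p = 0.0721, limma), but did without KO replicate 1 (0.91, adjusted p = 0.008) and without KO replicate 2 (1.41, adjusted p = 0.0157). Without GH the KO minus WT difference was 0.43 ± 0.198 (adjusted p = 0.417, limma), and 0.74 without KO replicate 1 (adjusted p = 0.00294).

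**Figure D2:**
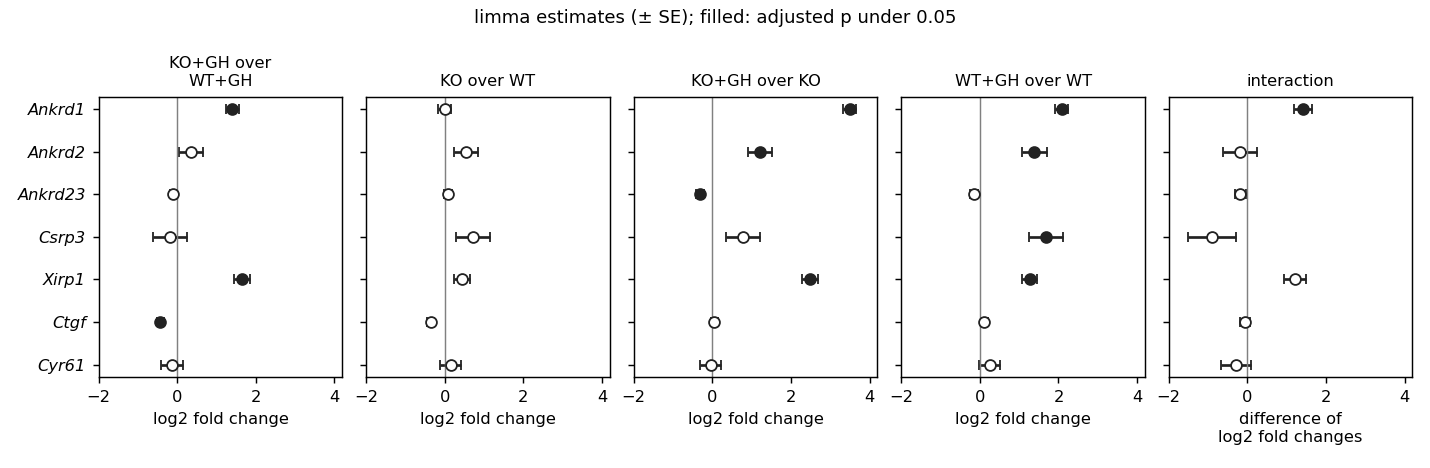
Log2 fold change (horizontal axis, ± SE) of the 7 genes, listed down the page, in each of the 5 comparisons, with filled points where the limma adjusted p was under 0.05. Ankrd1 and Xirp1 are filled to the right with GH in both genotypes and in KO+GH over WT+GH, and Ctgf is filled to the left in KO+GH over WT+GH at -0.43.

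Slow fibre markers differed between some of the groups. Their 9 genes summed to 39120 to 40240 in KO+GH and 33350 to 34940 in WT+GH, and to 41150 to 50990 in KO and 14460 to 35460 in WT. Of the 9, none passed for KO+GH over WT+GH, although 8 had a positive log2 difference and 2 an unadjusted p under 0.05 (limma). The fit shares the spread of each gene over the 4 groups, and the sums above spread widest in WT. Of the same 9, 6 were higher in KO than in WT, 1 was higher with GH in KO and 7 were higher with GH in WT. With that mean as a covariate in the model, the GH difference in WT was 1.01 for Xirp1 (adjusted p = 0.108), 1.22 for Ankrd2 (0.25) and 0.51 for Csrp3 (0.67), against 1.27, 1.39 and 1.68 without the covariate. Ankrd1 passed in both models. WT arrays had the lowest slow fibre means, 9.31 to 10.8 on the log2 scale, against 11.2 to 11.8 on the other arrays. The covariate therefore overlaps with membership of the WT group. Over all genes, calls for GH in WT went from 2416 to 676 with it. The part of fibre type in these differences was not tested. No slow fibre marker was at 0 on any array.

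**Figure D3:**
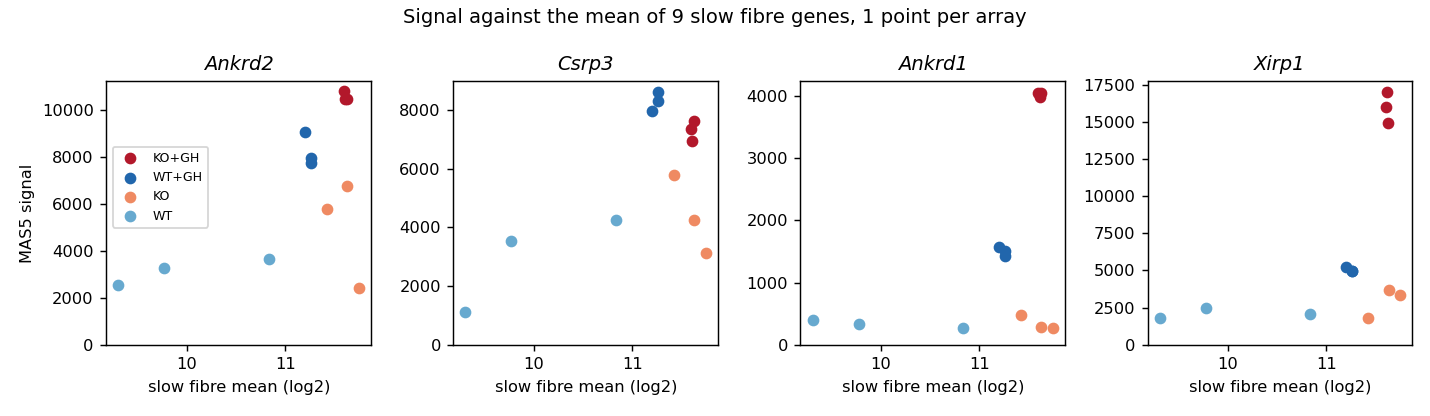
MAS5 signal of Ankrd2, Csrp3, Ankrd1 and Xirp1 (vertical axes, from 0) against the mean log2 level of 9 slow fibre genes (horizontal axis), 1 point per array. WT arrays spread from 9.31 to 10.8 on the horizontal axis; KO arrays sit at 11.4 to 11.8, where Ankrd1 reads 276 to 473 and Xirp1 1833 to 3674.

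Ctgf, a matricellular regulator of connective tissue growth at chr10:24595442-24598683, was lower in KO+GH than in WT+GH. Its signal was 995, 1100.5 and 1000.5 in KO+GH muscle, against 1513, 1390.4 and 1290.2 in WT+GH muscle. In KO muscle it was 1011, 952 and 1025, against 1232, 1317 and 1304 in WT muscle. Both genotype comparisons were without overlap, whereas GH moved no group clear of its counterpart.

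Ctgf fell by 0.43 on the log2 scale in KO+GH relative to WT+GH (± 0.0865 SE, limma, adjusted p = 0.00759). Without GH the difference was -0.36 ± 0.0865 (adjusted p = 0.055, limma), which passed without WT replicate 1 (adjusted p = 0.0452). The difference with GH did not pass without KO+GH replicate 1 or 3 (adjusted p = 0.0505 and 0.0506). GH differences were 0.05 in KO (adjusted p = 0.724) and 0.12 in WT (adjusted p = 0.378, limma). Of 7 fibroblast and matrix markers, none passed in either genotype comparison and none had an unadjusted p under 0.05 (limma). Of 8 endothelial markers, 1 was higher and 2 lower in KO+GH than in WT+GH, and the part of endothelium in the Ctgf difference was not tested.

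Cyr61, a matricellular relative of Ctgf induced early by mechanical and growth signals, at chr3:145646971-145649985, did not pass in any comparison on its main probe set. Its signal was 834, 616 and 628 in KO+GH muscle, against 863, 666 and 753 in WT+GH muscle. In KO muscle it was 602, 692 and 849, against 1029.6, 668 and 366 in WT muscle. The 4 groups overlapped, and WT arrays spread widest. Over its 4 probe sets, the GH difference in WT was 0.25, 0.38, 0.74 and 1.25 on the log2 scale, positive in all, and only the last passed (± 0.24 SE, adjusted p = 0.00308, limma over all probe sets). That probe set had mean signals of 148 in KO+GH and 242 in WT+GH, and of 130 in KO and 92.9 in WT, and its interaction of -1.09 ± 0.34 did not pass (adjusted p = 0.285). The probe set with 0.74 in WT (adjusted p = 0.0672) averaged 175 in KO+GH and 192 in WT+GH, and 112 in KO and 109 in WT. Its arrays with GH did not overlap those without in either genotype. In KO the 4 GH differences, in the same order, were -0.04, 0.10, 0.56 and 0.16, none past the threshold.

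Genes whose log2 values followed a member most closely over the 12 arrays were described by Pearson's r, without a test, since all share the 4 groups and the same arrays. For Ankrd1 these were Gadd45a, a growth arrest and stress gene (r = 0.991), and Ip6k3 (r = 0.984). For Xirp1 they were Ankrd33b (r = 0.993) and Flnc (r = 0.991), which encodes filamin C. Flnc averaged 13643 in KO+GH and 6886 in WT+GH, and 5063 in KO and 3835 in WT. It was 0.99 ± 0.1 higher in KO+GH than in WT+GH (adjusted p = 1.82e-05, limma). Ankrd2 was most like Pdpk1 (r = 0.985) and Ldlrad3 (r = 0.947), and Ankrd23 like Uqcrc2 (r = 0.983) and Tcap (r = 0.965), the titin cap gene. Csrp3 was most like Crym and Arid5a (both r = 0.968), Ctgf like Gdpd5 (r = 0.954) and Traf3ip2 (r = 0.938), and Cyr61 like Pclo (r = 0.925) and Tmem268 (r = 0.872). Pclo averaged 56.2 in KO+GH, 58.0 in WT+GH, 58.6 in KO and 55.2 in WT, close to the filter on low values. It passed in no comparison in limma.

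Among the partners of the ankyrin repeat proteins and of titin N2A, 1 of 10 genes was higher in KO+GH than in WT+GH. This was Trim63, the ubiquitin ligase MuRF1, at 0.54 ± 0.137 (adjusted p = 0.0339, limma), with means of 19649 in KO+GH and 13487 in WT+GH. Of 17 Z-disc, Xin and muscle LIM protein partners, 2 were higher, Flnc and Myoz3 (0.32, adjusted p = 0.0339). Leaving out 1 array at a time gave 0 to 2 calls in the first list, with 0 without any 1 of the arrays with GH, and 1 to 3 in the second. The median log2 difference was 0.01 in the first list and -0.07 in the second. With GH in KO, 2 of the 10 were higher and 1 lower, and 3 of the 17 were higher and 5 lower. With GH in WT, 1 of the 10 was higher, and 2 of the 17 were higher and 1 lower. Over all genes, 24.3% passed with GH in KO, 19.1% with GH in WT and 4.53% for KO+GH over WT+GH. The same shares, with 1.45% for KO over WT, stand beside the counts of the other lists and markers.

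Of 17 YAP and TAZ target genes other than Ctgf, Cyr61 and Ankrd1, 2 were higher in KO+GH than in WT+GH and none lower. These were Tgfb2, a secreted growth factor, at 1.44 ± 0.154 (adjusted p = 3.35e-05, limma), and Gadd45a at 1.12 ± 0.162 (adjusted p = 0.000549, limma). Tgfb2 averaged 1797 in KO+GH and 644 in WT+GH, and 462 in KO and 395 in WT. The median of the 17 was 0.01. With GH, 4 were higher and 1 lower in KO, and 5 were higher and 2 lower in WT, Gadd45a among the higher in both. Of 16 Hippo pathway and TEAD genes, 1 was higher, Vgll2 (0.44, adjusted p = 0.00883), a TEAD cofactor of muscle. Of 15 SRF and MRTF genes, 1 was lower, Actg1, a cytoplasmic actin (-0.40, adjusted p = 0.0469). Leaving out 1 array at a time gave 0 to 2 calls among the Hippo genes (0 without KO+GH replicate 3 or WT+GH replicate 1) and 0 to 1 among the SRF genes, where none passed without any 1 KO+GH array, WT+GH replicate 1 or 3, or KO replicate 1 or 2. None of the 3 other CCN genes measured passed in that comparison in limma, and Ccn5 was lower in KO than in WT without GH (-0.75 ± 0.158, adjusted p = 0.0261), a call lost without KO replicate 1 or 2 or WT replicate 1 or 3.

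Immediate early genes, switched on within minutes of many stimuli, gave 9 of 18 higher and none lower in KO+GH than in WT+GH. Egr1, an early transcription factor, averaged 10328 in KO+GH and 934 in WT+GH, and 496 in KO and 815 in WT. Its KO+GH over WT+GH difference was 3.43 ± 0.136 (adjusted p = 1.50e-09, limma). The median of the 18 was 0.67. Leaving out 1 array at a time gave 8 to 10 calls. With GH, 12 were higher and 1 lower in KO, and 6 were higher and 2 lower in WT. Without GH 2 of the 18 were higher in KO and 1 lower.

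**Figure D4:**
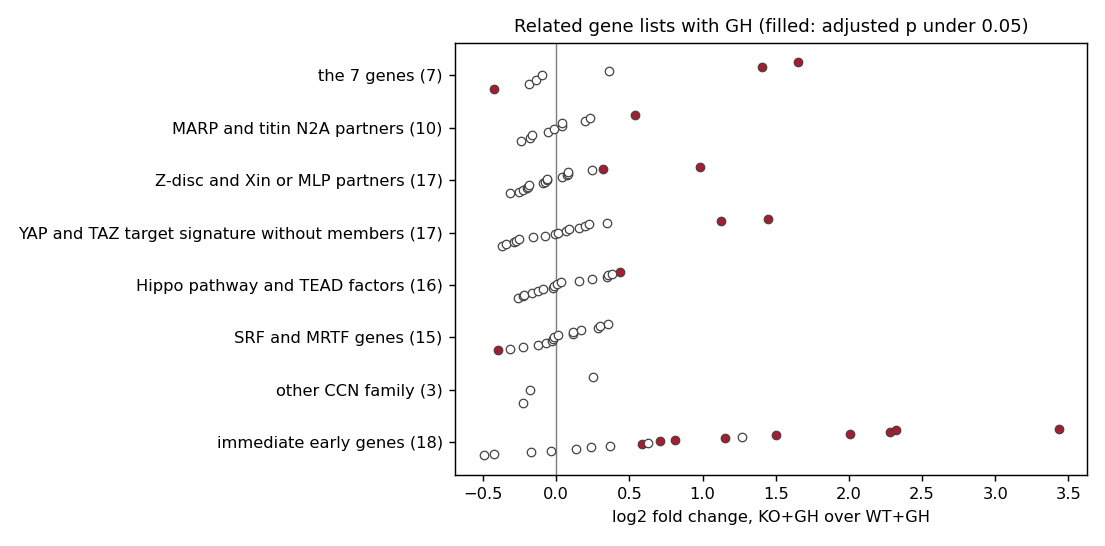
Log2 fold change of KO+GH over WT+GH (horizontal axis), 1 point per gene, for the 7 genes and 7 related lists (down the page, with the number of genes measured), filled where the adjusted p was under 0.05. Of the immediate early genes 9 are filled, all above 0, while each other related list has at most 2 filled points.

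Markers of other cells moved with the groups in part. Summed over the 7 with a probe set, neutrophil markers read 1442 to 1725 in KO+GH and 2773 to 2879 in WT+GH. In KO they read 303 to 390.3 and in WT 404 to 480.2. Of the 5 that passed the filter on low values, 2 were lower in KO+GH than in WT+GH. With GH, 2 of the 5 were higher in KO and 3 in WT. Macrophage markers summed to 7628 to 7811 in KO+GH and 7550 to 7914 in WT+GH, and to 9827 to 14000 in KO and 10370 to 16980 in WT. Of the 8, none passed in either genotype comparison in limma, and none had an unadjusted p under 0.05, whereas 6 were lower with GH in KO and 4 in WT. Of 8 smooth muscle and pericyte markers, 2 were higher in KO+GH than in WT+GH, with sums of 42620 to 43780 against 38280 to 48390. All 10 fast fibre and all 9 slow fibre markers passed the filter on low values, against 2 of 8 cardiomyocyte markers. Fast fibre markers had 7 lower and 1 higher with GH in KO. The part of these cells in the results was not tested.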

How the data were processed

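Total RNA of 12 mice was hybridized to 1-colour Affymetrix mouse arrays, 3 per group. The authors deposited MAS5 signal, a linear intensity; MAS5 is named by the submitters' processing notes, and its version is not given in the sources used here. The trimmed mean of every array was 499.8 to 499.82, so the deposited intensities had been scaled to a common target. The number of arrays limits the precision.

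Groups came from the labels. No animal number recurs among the titles, and the p-values measure only the spread between these arrays. Of 45101 probe sets, 64 controls, 932 with several symbols and 9160 with none were left out. Signal was taken as log2(signal + 25). Each gene kept its probe set with the highest mean, and genes at or below the 40th percentile of probe set means (log2 6.25) were dropped, leaving 12654. Group means were fitted with limma 3.58.1 in R 4.3.3 (statmod 1.5.0, trend and robust settings, 8 residual degrees of freedom). Benjamini-Hochberg adjustment ran over all genes, with a threshold of 0.05. The fit was also run on simulated normal values, with the same spread for a gene in every group. That run does not cover groups that differ in spread. Other probe sets of a gene were fitted over all 34945 probe sets.

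The members and gene lists were chosen with earlier results of these data known. The genes named are the 7 members, the 2 genes most like each, and up to 3 genes per list and comparison with the smallest p past the threshold; Stat5a and Stat5b check the labels. Alternatives varied the pseudocount, filter, scaling, choice of probe sets, limma settings, covariate, and arrays left out. Matching Ctgf and Cyr61 to Ccn2 and Ccn1 used RefSeq synonyms.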

Additional observations from a re-analysis of the deposited data

Results flagged for a closer look

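The test of the interaction, the GH difference in KO minus that in WT, passed for 1 of the 7 genes and for 7 of the genes named from the lists, each of which is given here because that difference itself passed. Ankrd1 had 1.41 on the log2 scale, with the response larger in KO. Among YAP and TAZ targets, Tgfb2 had 1.20 and Gadd45a 1.14. Among immediate early genes, Egr1 had 4.10, Btg2 2.13 and Klf6 0.96. The calcium pump gene Atp2a2, a slow fibre marker, had -1.05, and the endothelial junction gene Cldn5 had -0.97, both with a lower difference in KO. Leaving out 1 array at a time gave 1 to 2 interaction calls among the YAP and TAZ targets and 3 to 5 among the immediate early genes. Other alternatives gave 0 to 2 and 1 to 5. With the slow fibre covariate the Ankrd1 interaction was 0.90 and did not pass (limma, adjusted p = 0.195). Groups of 3 were not tested for single arrays that stand apart. Among the array weights, which ran up to 1.86, the lowest were 0.421 for KO replicate 3 and 0.319 for WT replicate 1. Poly-A control signal also differed between arrays with and without GH, and its part in these differences was not tested.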

How the results depend on the processing

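No paired analysis was possible because replicate numbers here follow accession order and the animal numbers in the titles are shared by no samples. Of 903 fold changes recomputed under alternatives, 836 kept their direction and side of the threshold, 20 lost the call, 17 gained one and 30 changed sign. Ankrd1 and Xirp1 passed for KO+GH over WT+GH under all 26 alternatives (log2 1.36 to 1.55 and 1.58 to 1.70). Omitting 1 array at a time gave 2 to 3 members past the threshold for KO+GH over WT+GH, 0 to 1 for KO over WT, 2 to 5 for GH in KO (2 without KO+GH replicate 3), 3 to 4 for GH in WT and 1 to 2 for the interaction. KO over WT gave 1 member with array weights, a filter at the 60th percentile, or probe sets averaged per gene, and 2 without WT 1 and KO 3, an alternative chosen after seeing the data, as was centring on the genes kept. With the slow fibre covariate, 1 member passed for GH in WT and 0 for the interaction, which gave 2 with array weights. Signs changed for Ankrd1 in KO over WT (0.023 with weights, 0.0026 with pseudocount 100, 0.016 with quantile normalization, 0.65 with the covariate, 0.25 without WT 1 and KO 3, 0.013 with genes-kept centring). They also changed for Ankrd23 (KO over WT -0.043 with the covariate, KO+GH over WT+GH 0.022 with quantile normalization), Cyr61 with GH in KO (0.19 with mean probe sets, 0.10 without _x and _s probe sets, 0.084 without WT 1 and KO 3, 0.013 with genes-kept centring) and Ctgf (array-median centring, -0.13 with GH in KO and -0.067 in WT; interaction 0.0029 with weights). With the covariate, Csrp3 was -0.78 for KO over WT and 0.26 for the interaction. Omitting single arrays gave ranges that cross 0: Ankrd23 -0.16 to 0.0023 (KO+GH over WT+GH) and -0.0078 to 0.14 (KO over WT), Ankrd1 -0.23 to 0.13 (KO over WT), Cyr61 -0.22 to 0.49 (KO over WT), -0.18 to 0.084 (GH in KO), -0.13 to 0.59 (GH in WT) and -0.63 to 0.087 (interaction), and Ankrd2 -0.63 to 0.11 (interaction). The cause was not tested. Counts over all genes also moved. For KO+GH over WT+GH, 573 genes became 1300 with only those groups, 1362 with weights, 1028 without WT 1 and KO 3, and 364, 357 and 351 without KO+GH 1, 2 and 3. For KO over WT, 184 became 39 with only those groups, 111 without trend and robust settings and 41 with the covariate. For the interaction, 118 became 77, 214, 78 and 208 without trend, with weights, with the covariate and without WT 1 and KO 3, and 75 and 76 without KO+GH 1 and 2. Array-median centring turned 3078 into 4816 for GH in KO and 2416 into 4429 for GH in WT, which became 676 with the covariate; it moved the all-gene median by -0.18 and -0.19, and the share of calls that were higher from 36.7% to 13.4% in KO and from 38.4% to 11.1% in WT, against 49.9% and 50.4% with genes-kept centring.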
